A study of Homo sapiens with 4 samples.

Results

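The ATP-binding cassette (ABC) transporter genes were taken as the protein-coding genes whose symbol is ABC, a subfamily letter A to G and a number, together with CFTR, which belongs to subfamily C. There were 46 such genes among the 61860 in the count table, and 1 further symbol of this form, ABCC13, was left out as a pseudogene. The cells were HT1376, a human line from bladder cancer, and their RNA was sequenced. In 2 samples they had received 1 nM enfortumab vedotin (EV) for 48 h, and in 2 others a control labelled WFI for 48 h. EV is an antibody against nectin-4 that carries monomethyl auristatin E (MMAE), a drug that disrupts microtubules. The labels give no unconjugated antibody and no free MMAE, and whether replicates came from separate cultures is not stated. The p-values therefore reflect only how these samples spread, which may be technical.

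ABC proteins bind and hydrolyse ATP. Most use the energy to move a substrate across a membrane, such as sterols and phospholipids in subfamilies A and G, drugs and conjugates in subfamilies B and C, and fatty acids or cobalamin in subfamily D. Members of subfamilies E and F have no membrane-spanning part and work at the ribosome. ABCB1, also called P-glycoprotein, is known as an exporter of MMAE and of many other hydrophobic drugs, and ABCA1 is the exporter that loads cholesterol onto apolipoprotein A-I.

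Total counts were 19368791 and 20727175 in EV samples and 19447577 and 19669037 in WFI samples. Of 18 urothelial and epithelial marker genes, 11 passed the filter on low counts. KRT8 had 34354 and 36851 counts in EV samples and 15269 and 15213 in WFI samples, while KRT20 had 0 in all 4 samples, and CDH1, which encodes E-cadherin, had 9 and 7 counts in EV samples and 0 and 1 in WFI samples. The list summed to 3482 and 3529 CPM (counts scaled to library size) in EV and 1695 and 1675 CPM in WFI. KRT7 and KRT18 were also high in all samples, while KRT19 had 0 and 1 counts in EV and 1 and 6 in WFI, and KRT5 had 97 and 134 in EV and 0 in both WFI samples. The labelled cell type was thus borne out by some of its defining markers and not by others. All values come from bulk RNA, in which fewer cells that express a gene and less RNA of it per cell cannot be told apart.

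ABCB1 and ABCA1 had the largest rise and fall among the 29 members with 10 or more counts in every sample, and the windows around their RefSeq starts are shown because the counts of these genes moved in opposite directions. The windows hold 250 bases before and 50 bases from a start, on GRCh38.p14. The ABCA1 window is chr9:104928106-104928405 on the minus strand. RefSeq gives ABCB1 2 windows on the minus strand, one at the downstream start (chr7:87600835-87601134) and one at the upstream start (chr7:87713246-87713545). Capitals mark matches, on either strand, to the E-box (CACGTG), the GC box (GGGCGG), the CCAAT box (CCAAT), the AP-1 site (TGANTCA) and a liver X receptor (LXR) element. The LXR element is marked in a relaxed form.
ABCA1: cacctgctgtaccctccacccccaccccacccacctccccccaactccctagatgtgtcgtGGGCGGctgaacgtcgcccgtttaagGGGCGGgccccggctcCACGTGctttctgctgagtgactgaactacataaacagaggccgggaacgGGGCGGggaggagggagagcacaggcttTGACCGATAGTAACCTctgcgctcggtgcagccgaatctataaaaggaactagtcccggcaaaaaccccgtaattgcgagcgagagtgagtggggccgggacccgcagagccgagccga
ABCB1 downstream start: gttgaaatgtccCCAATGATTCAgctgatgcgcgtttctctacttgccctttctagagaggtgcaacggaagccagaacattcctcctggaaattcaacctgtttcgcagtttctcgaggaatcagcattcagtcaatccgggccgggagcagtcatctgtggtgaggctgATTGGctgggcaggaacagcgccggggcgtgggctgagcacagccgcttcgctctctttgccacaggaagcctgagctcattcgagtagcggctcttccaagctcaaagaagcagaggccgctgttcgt
ABCB1 upstream start: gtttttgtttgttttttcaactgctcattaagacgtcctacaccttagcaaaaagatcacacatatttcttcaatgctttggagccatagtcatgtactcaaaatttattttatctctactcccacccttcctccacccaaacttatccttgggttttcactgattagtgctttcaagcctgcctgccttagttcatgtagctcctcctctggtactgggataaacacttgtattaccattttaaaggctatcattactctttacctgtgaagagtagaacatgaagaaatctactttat

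The ABCA1 window held an E-box 147 to 142 bases before the start and GC boxes that begin 189, 163 and 97 bases before it. In a relaxed form only, it also held an LXR element 69 to 54 bases before the start. LXR is a nuclear receptor that senses oxysterols, and its element is a repeat of AGGTCA with 4 bases between the copies. The exact repeat was found in no member's window and in 0.02% of all 35116 windows. A form with 2 bases relaxed, chosen after the exact repeat had found no member, was in 0.094% of all windows and in no window of another member. That form was not planned, so its match in ABCA1 and its share carry no weight as support. The downstream window of ABCB1 held CCAAT boxes that begin 238 and 79 bases before the start, the second on the opposite strand, and an AP-1 site that begins 234 bases before the start and overlaps the first CCAAT box by its first base. The upstream window of ABCB1 held none of these. Of all windows, 7.26% held the E-box, 45.0% the GC box, 34.6% the CCAAT box and 7.71% the AP-1 site. Of the 46 members, 36 had a window, with 54 windows among them. Of these 54 windows, 9 held an E-box, 25 a GC box, 13 a CCAAT box and 6 an AP-1 site. Counted by gene, 8 members had an E-box, 21 a GC box, 12 a CCAAT box and 6 an AP-1 site in at least 1 window. Only the counts by window compare with the shares of all windows. Matches describe the letters only, and counts per gene do not tell the starts of ABCB1 apart.

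Across the family, ABCB1 rose 4.59-fold after EV and ABCA1 fell to a fitted 0.0701 of its WFI level. Of the 46 members, 33 passed the filter, and 9 of these rose, 13 fell and 11 were not called (edgeR quasi-likelihood test, Benjamini-Hochberg adjusted p below 0.05 over all 17465 genes tested). Among all genes tested, 66.0% were called, 34.5% higher and 31.5% lower in EV, so these counts describe a family that moved about as often as other genes. The median log2 fold change, EV over WFI, was -0.20 over the 33 tested members and 0.02 over all genes tested. Of the 9 that rose, ABCA8, ABCA9, ABCC8 and ABCG8 had at most 3 counts in each WFI sample. They passed the filter through their EV counts and could only rise. After a correction for transcript length and GC content, 14 members were higher and 10 lower.

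**Figure D1:**
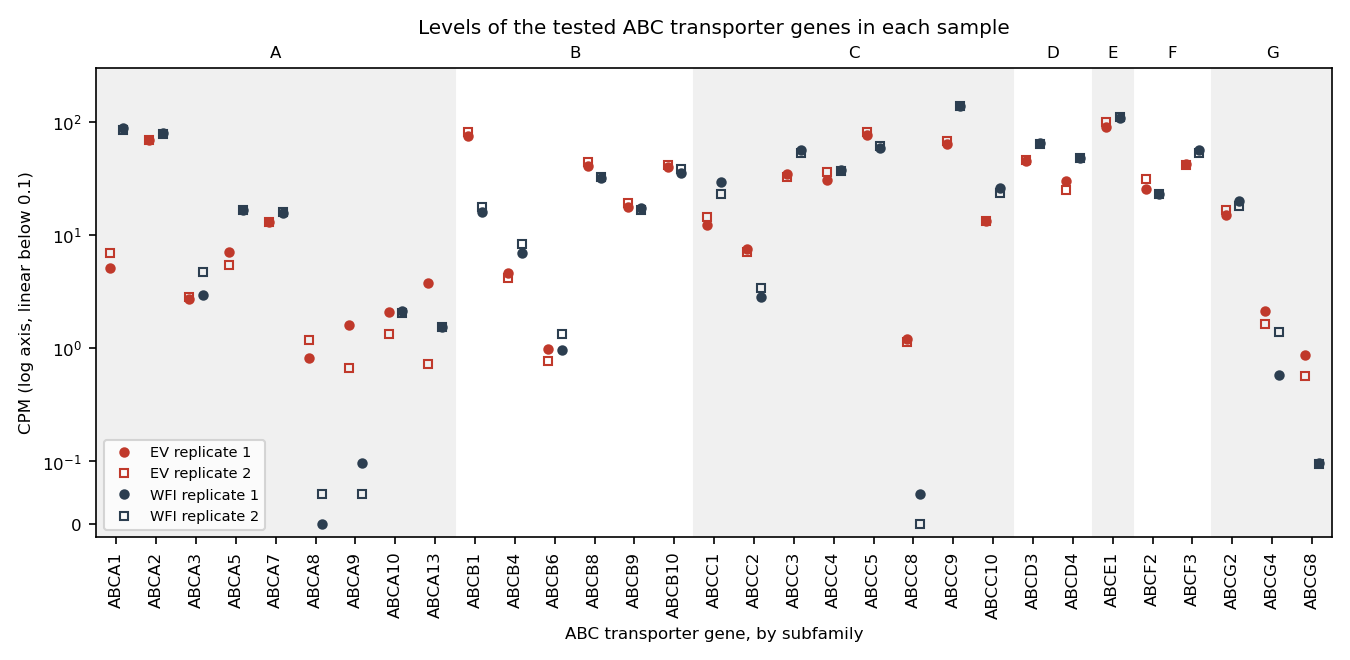
Scaled counts (CPM, with TMM factors) of 31 tested ABC transporter genes in each of the 4 samples, on a log axis that is linear below 0.1, with EV samples left of WFI samples and the subfamily letter above. ABCB1 stands at 74.3 and 80.9 CPM in EV and at 16.1 and 17.6 CPM in WFI, and ABCA1 at 5.17 and 6.92 CPM in EV and at 88.1 and 85.0 CPM in WFI.

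**Figure D2:**
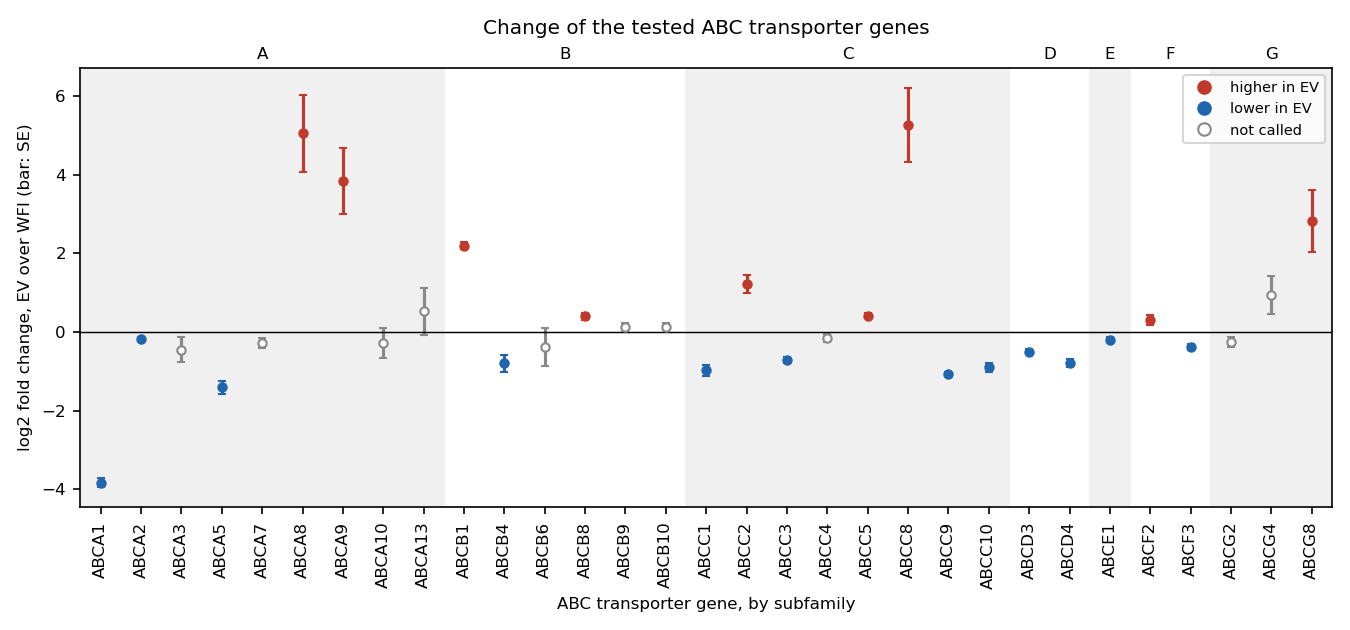
Log2 fold change of EV over WFI with its standard error (SE) for 31 tested ABC transporter genes, filled where the edgeR adjusted p was below 0.05. The 4 genes with the widest bars above 2, ABCA8, ABCA9, ABCC8 and ABCG8, are those with at most 3 counts in each WFI sample.

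In subfamily B, ABCB1 (ENSG00000085563, hg38 chromosome 7, 87503633 to 87713323, on the minus strand) had 1351 and 1566 counts in EV samples and 333 and 369 in WFI samples. Its level was 74.3 and 80.9 CPM in EV and 16.1 and 17.6 CPM in WFI. Both EV samples lay far above both WFI samples, with no overlap. The log2 fold change was 2.20 (SE 0.09, edgeR adjusted p = 2.94e-09), and it stayed between 2.14 and 2.27 when any 1 sample was left out. Across all genes tested, 1750 had a larger rise. RUNDC3B, which lies over ABCB1 on the opposite strand, had 41 and 52 counts in EV samples and 27 and 34 in WFI samples (edgeR adjusted p = 0.0915). Whether counting used strand is not given, so reads there could be counted for either gene.

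ABCB4, which moves phosphatidylcholine into bile, lies 23197 bases from ABCB1 on the same strand and went the other way. Its level was 4.62 and 4.18 CPM in EV and 6.92 and 8.41 CPM in WFI, and the groups did not overlap. The log2 fold change was -0.80 (SE 0.21, edgeR adjusted p = 0.00641), and -0.65 without WFI replicate 2, where the call was lost (edgeR adjusted p = 0.113). Neighbouring genes of this family thus differed in direction at this locus.

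Mitochondrial members of subfamily B showed small differences. ABCB8 rose to 40.6 and 43.9 CPM in EV, against 31.7 and 32.5 CPM in WFI (log2 fold change 0.40, SE 0.09, edgeR adjusted p = 0.00189). ABCB10, which takes part in heme synthesis, had 40.2 and 41.4 CPM in EV and 35.7 and 38.6 CPM in WFI and did not pass the test (log2 fold change 0.14, edgeR adjusted p = 0.181). The porphyrin transporter ABCB6 (0.989 and 0.775 CPM in EV, 0.968 and 1.34 CPM in WFI) and the lysosomal peptide transporter ABCB9 (17.6 and 19.1 CPM in EV, 17.2 and 16.6 CPM in WFI) did not pass either. ABCB10 and ABCB9 were called higher after the length and GC correction, with log2 fold changes of 0.33 and 0.45. ABCB5 had 5 and 0 counts in EV and 0 in both WFI samples, and ABCB11, the bile salt export pump, had 0 in all 4.

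Of 25 genes of heme and iron-sulfur cluster synthesis, which work beside the mitochondrial members, 13 were higher in EV, 4 lower and 8 not called, and the median log2 fold change was 0.34. All genes tested had a median of 0.02, with 34.5% higher and 31.5% lower. SLC25A37, the mitochondrial iron importer, fell by 1.61 on the log2 scale (SE 0.05, edgeR adjusted p = 4.15e-10). GLRX5, an iron-sulfur carrier, rose by 1.09 (SE 0.06, edgeR adjusted p = 4.02e-08), and ALAS1, the first enzyme of heme synthesis, rose by 0.66 (SE 0.05, edgeR adjusted p = 9.29e-07). Without WFI replicate 2, 2 genes of this list fell.

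Subfamily C holds further drug exporters. Of its 12 genes, 8 were tested, of which 3 were higher in EV, 4 lower and 1 not called, where 34.5% of all genes tested were higher and 31.5% lower. ABCC1, or MRP1, which exports glutathione conjugates and several anticancer drugs, had 12.2 and 14.4 CPM in EV and 29.4 and 23.0 CPM in WFI (log2 fold change -0.98, SE 0.15, edgeR adjusted p = 0.000143). ABCC3, an exporter of organic anions, had 34.3 and 32.5 CPM in EV and 56.6 and 53.5 CPM in WFI (log2 fold change -0.72, SE 0.08, edgeR adjusted p = 1.31e-05). ABCC10, or MRP7, which is known for taxane transport, had 13.2 and 13.3 CPM in EV and 26.1 and 23.5 CPM in WFI (log2 fold change -0.90, SE 0.12, edgeR adjusted p = 4.64e-05). In each of these 3 exporters both EV samples lay below both WFI samples, and each stayed lower after the length and GC correction, at -0.51, -0.34 and -0.62. How many of all genes tested had groups without overlap is not given. Lack of overlap, here and for other members, thus describes the samples and is not a trait of these genes.

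ABCC2, or MRP2, which exports conjugates at the apical membrane, rose to 7.59 and 7.13 CPM in EV, against 2.86 and 3.39 CPM in WFI (log2 fold change 1.23, SE 0.23, edgeR adjusted p = 0.000681). ABCC5, an exporter of cyclic nucleotides, rose to 77.2 and 82.0 CPM in EV, against 59.0 and 60.9 CPM in WFI (log2 fold change 0.41, SE 0.06, edgeR adjusted p = 0.00017). Neither gene's groups overlapped. ABCC4, an exporter of nucleotides and prostaglandins, had 30.8 and 35.9 CPM in EV and 37.4 and 36.7 CPM in WFI and did not pass (log2 fold change -0.15, edgeR adjusted p = 0.192). It was called lower without EV replicate 2 (-0.27, edgeR adjusted p = 0.0277) and higher after the length and GC correction (0.34, edgeR adjusted p = 0.0108). Its direction is therefore not settled here.

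ABCC9 encodes SUR2, the regulatory subunit of ATP-sensitive potassium channels. Its level was 64.4 and 67.9 CPM in EV and 138 and 139 CPM in WFI, with no overlap (log2 fold change -1.07, SE 0.05, edgeR adjusted p = 1.7e-08). After the length and GC correction the fall was -0.23 (edgeR adjusted p = 0.00268). KCNJ8, which encodes the channel pore that pairs with SUR2, had 169 and 71 counts in EV and 207 and 206 in WFI and did not pass (edgeR adjusted p = 0.109). ABCC8, or SUR1, had 22 counts in each EV sample and 1 and 0 in the WFI samples, a ratio of 48.7 with an exact binomial 95% interval of 8.3 to 1967 that covers counting error only. CFTR, a chloride channel, had 2 and 0 counts in EV and 1 and 0 in WFI, and ABCC6 had 0 and 4 in EV and 1 and 3 in WFI, at a level where no change could be measured. ABCC6 has near-identical pseudogene copies, of which ABCC6P1 had 23 and 15 counts in EV and 0 in both WFI samples, so reads of this locus may be split among the copies. ABCC11 had 5 and 4 counts in EV and 2 and 4 in WFI, and ABCC12 had 22 and 9 in EV and 4 and 0 in WFI.

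Among 23 drug carriers outside the ABC family, 17 were tested, of which 3 were higher in EV, 6 lower and 8 not called, and the median log2 fold change was -0.34. For comparison, 34.5% of all genes tested were higher and 31.5% lower. MVP, the major vault protein, fell by 0.49 on the log2 scale (SE 0.04, edgeR adjusted p = 4.03e-07). SLCO4A1, an organic anion carrier, fell by 0.42 (SE 0.03, edgeR adjusted p = 7.33e-07), and the copper importer SLC31A1 fell by 0.60 (SE 0.06, edgeR adjusted p = 4.22e-06). SLC46A3, a lysosomal carrier known for the catabolites of some antibody-drug conjugates, had 1 and 5 counts in EV and 1 and 0 in WFI.

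ABCA1 (ENSG00000165029, hg38 chromosome 9, 104781002 to 104928237, minus strand) led subfamily A. It had 94 and 134 counts in EV samples and 1819 and 1779 in WFI samples. As levels these were 5.17 and 6.92 CPM in EV and 88.1 and 85.0 CPM in WFI, and the groups were far apart. The log2 fold change was -3.83 (SE 0.11, edgeR adjusted p = 2.68e-10), with 145 of the 17465 genes tested falling further. Leaving out any 1 sample gave -4.06 to -3.64, and the length and GC correction gave -2.84.

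ABCA5, a lysosomal member, also fell, to 7.09 and 5.42 CPM in EV, against 16.7 and 16.5 CPM in WFI (log2 fold change -1.41, SE 0.16, edgeR adjusted p = 1.93e-05). After the length and GC correction its change was -0.50 (edgeR adjusted p = 0.021). ABCA5 overlaps ABCA10 by 536 bases on the same strand of chromosome 17, so reads there could be counted for either. ABCA10 had 38 and 26 counts in EV and 44 and 43 in WFI and did not pass (edgeR adjusted p = 0.526). In the same cluster ABCA8 had 15 and 23 counts in EV and 0 and 1 in WFI, a ratio of 42.1 (exact binomial 95% interval 7.11 to 1705), and ABCA9 had 29 and 13 in EV and 2 and 1 in WFI, a ratio of 15.5 (4.95 to 78.2). ABCA8 and ABCA9 passed the filter through their EV counts and could only rise, and their intervals cover counting error only. ABCA6 had 3 and 12 counts in EV and 2 in each WFI sample.

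ABCA2, a lysosomal lipid transporter, had 69.6 CPM in both EV samples and 79.4 and 78.3 CPM in WFI (log2 fold change -0.18, SE 0.06, edgeR adjusted p = 0.0169). This small difference was not called without WFI replicate 1 (edgeR adjusted p = 0.176), without WFI replicate 2 (0.124), with DESeq2 (0.11), with upper quartile scaling (0.0811) or with a filter of 50 counts (0.0581), and it turned to 0.38 after the length and GC correction (0.000169). ABCA7, a phospholipid transporter, had 235 and 255 counts in EV and 323 and 335 in WFI and did not pass (log2 fold change -0.28, edgeR adjusted p = 0.0674). ABCA3, which packs surfactant lipids in the lung, had 2.75 and 2.84 CPM in EV and 2.95 and 4.68 CPM in WFI and did not pass (edgeR adjusted p = 0.225). ABCA13 rested on 1 library. It had 68 and 14 counts in EV and 32 in each WFI sample, so the EV samples lay on either side of the WFI samples (edgeR adjusted p = 0.466), with a log2 fold change of -1.08 without EV replicate 1 (0.0665) and 1.28 without EV replicate 2 (0.00864). After the length and GC correction it was called higher (1.79, edgeR adjusted p = 0.0247). The retinal transporter ABCA4 had 13 and 4 counts in EV and 9 and 5 in WFI, and ABCA12, which supplies skin lipids, had 12 and 9 in EV and 3 and 4 in WFI.

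In subfamily G, ABCG2, a broad drug exporter also called BCRP, had 276 and 325 counts in EV and 413 and 379 in WFI and did not pass the test (log2 fold change -0.25, SE 0.12, edgeR adjusted p = 0.0887). Its call depended on single samples, since it was called lower without EV replicate 2 (-0.33, edgeR adjusted p = 0.0467), and its sign turned after the length and GC correction (0.09, 0.548). ABCG1, which exports cholesterol to lipoprotein particles, had 6 and 10 counts in EV and 7 and 13 in WFI. It therefore gives no usable counterpart to ABCA1 in these cells. ABCG4 had 39 and 32 counts in EV and 12 and 29 in WFI (edgeR adjusted p = 0.114), and was called higher without WFI replicate 2 (log2 fold change 1.70, edgeR adjusted p = 0.0451). ABCG5 and ABCG8, which form a sterol exporter together and overlap head to head on chromosome 2, had 18 and 8 counts and 16 and 11 counts in EV, against 1 in each WFI sample for ABCG5 and 2 in each for ABCG8. The ABCG8 ratio was 7.47 (exact binomial 95% interval 2.6 to 29.4), and its call was lost without WFI replicate 1 (edgeR adjusted p = 0.0574) and without WFI replicate 2 (0.058).

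ABCA8, ABCA9, ABCC8 and ABCG8 passed the filter through their EV counts, so their rise was fixed by the filter. Other members with at most 3 counts in each WFI sample lay below the filter and were not tested. Some, but not all, markers of other cell types were also higher in EV samples. The 6 leukocyte markers summed to 42.9 and 43.1 CPM in EV and 1.55 and 2.29 CPM in WFI, with ITGAM at 464 and 513 counts in EV and 3 and 2 in WFI, CD79A at 182 and 155 in EV and 2 and 1 in WFI, and CD14 at 128 and 146 in EV and 26 and 42 in WFI. PTPRC, which defines leukocytes, had 4 and 9 counts in EV and 1 and 3 in WFI. CD3E had 0 and 4 counts in EV, LYZ had 2 and 7, and both had 0 in WFI samples. The 4 hepatocyte markers summed to 14.6 and 13.6 CPM in EV and 13.5 and 10.4 CPM in WFI, with ALB at 62 and 34 counts in EV and 0 and 1 in WFI and SERPINA1, the main part of that sum, not called (log2 fold change -0.11, edgeR adjusted p = 0.591). The 5 endothelial markers summed to 20.1 and 21.2 CPM in EV and 10.7 and 13.5 CPM in WFI, the 5 fibroblast markers to 13.1 and 9.4 CPM in EV and 10.1 and 11.5 CPM in WFI, and the 3 erythroid markers to 0.33 and 0.361 CPM in EV and 0 in WFI. Among all genes tested, 911 had at most 3 counts in each WFI sample. Genes with any count numbered 29456 and 28770 in EV and 26258 and 26587 in WFI. The part of these shifts in the rise of ABCA8, ABCA9, ABCC8 and ABCG8 was not tested.

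Of 14 listed LXR targets outside the ABC family, 11 were tested, of which 4 were higher in EV, 3 lower and 4 not called, near the 34.5% higher and 31.5% lower among all genes, and the median log2 fold change was 0.21. MYLIP, a ubiquitin ligase, had 3403 and 3847 counts in EV and 112 and 107 in WFI (log2 fold change 5.19, SE 0.08, edgeR adjusted p = 1.14e-12). SCD, a fatty acid desaturase, fell by 0.91 on the log2 scale (SE 0.06, edgeR adjusted p = 2.28e-07). MYLIP and ABCA1 thus went in opposite directions. The LXR genes themselves, NR1H2 with 802 and 1088 counts in EV and 987 and 1125 in WFI, and NR1H3 with 119 and 165 in EV and 117 and 154 in WFI, did not pass the test (edgeR adjusted p = 0.904 and 0.412). NR1H2 was called lower after the length and GC correction (log2 fold change -0.30, edgeR adjusted p = 0.0311). RXRA, the partner receptor of LXR, fell by 0.85 on the log2 scale (SE 0.05, edgeR adjusted p = 3.79e-08) and was singled out after its values were seen.

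Of 24 genes of sterol synthesis and uptake, 11 were higher in EV, 4 lower and 9 not called, and the median log2 fold change was 0.15. The shares over all genes tested, to set beside this list and the next, were 34.5% higher and 31.5% lower. IDI1, an isomerase of the mevalonate pathway, had 3306 and 3339 counts in EV and 657 and 689 in WFI (log2 fold change 2.45, SE 0.06, edgeR adjusted p = 4.01e-11). HMGCS1, which feeds that pathway, rose by 1.96 (SE 0.06, edgeR adjusted p = 4.5e-10). Of 18 genes of intracellular cholesterol handling, 17 were tested, of which 10 were higher in EV, 5 lower and 2 not called, and the median was 0.21. Falls led this list by adjusted p. The endocytic receptor LRP1 fell by 1.64 on the log2 scale (SE 0.03, edgeR adjusted p = 1.56e-11), the oxysterol-binding protein gene OSBP by a log2 fold change of -1.09 (SE 0.06, edgeR adjusted p = 2.23e-08) and NPC1, the lysosomal cholesterol exporter, by -0.80 (SE 0.04, edgeR adjusted p = 4.22e-08).

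Subfamily D did not rise in any tested member. ABCD3, which imports branched fatty acids and bile acid precursors into peroxisomes, had 44.7 and 46.3 CPM in EV and 64.6 and 64.0 CPM in WFI (log2 fold change -0.50, SE 0.07, edgeR adjusted p = 6.74e-05). ABCD4, which moves cobalamin out of lysosomes, had 30.3 and 25.0 CPM in EV and 48.1 and 47.7 CPM in WFI (log2 fold change -0.80, SE 0.10, edgeR adjusted p = 3.92e-05). Both fell without overlap, at -0.25 and -0.77 after the length and GC correction. ABCD4 shares its strand with an overlapping transcript that had 0 and 5 counts in EV and 43 and 28 in WFI. ABCD2, a peroxisomal member, had 0 and 2 counts in EV and 3 and 0 in WFI. Of 22 peroxisomal and fatty acid genes, 21 were tested, of which 7 were higher in EV, 8 lower and 6 not called, and the median log2 fold change was -0.04, and 5 and 4 fell without WFI replicates 1 and 2. Over all genes tested, 34.5% were higher and 31.5% lower. ACSL3, a fatty acid activating enzyme, rose by 1.63 (SE 0.04, edgeR adjusted p = 5.76e-11) and its relative ACSL4 fell by 0.61 on the log2 scale (SE 0.04, edgeR adjusted p = 1.4e-07).

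The 3 measured genes of the ribosome-linked subfamilies E and F differed by less than 0.40 on the log2 scale. ABCE1, which splits ribosomes after termination, had 89.8 and 101 CPM in EV and 108 and 111 CPM in WFI (log2 fold change -0.20, SE 0.06, edgeR adjusted p = 0.0158). ABCE1 was no longer called without WFI replicate 2 (edgeR adjusted p = 0.109), without EV replicate 1 (0.0625), with DESeq2 (0.0558) and with upper quartile scaling (0.0577), and the value was 0.10 after the length and GC correction. OTUD4, on the opposite strand over ABCE1, had 1338 and 1264 counts in EV and 2929 and 2851 in WFI, and reads there could be counted for either gene. ABCF3 fell to 42.8 and 41.7 CPM in EV, against 56.9 and 53.3 CPM in WFI (log2 fold change -0.39, SE 0.07, edgeR adjusted p = 0.000915), and this call held in each alternative run apart from the fold threshold. ABCF2 rose to 25.3 and 31.4 CPM in EV, against 23.1 and 22.9 CPM in WFI (log2 fold change 0.30, SE 0.12, edgeR adjusted p = 0.0422). The ABCF2 call was lost without WFI replicate 1 (edgeR adjusted p = 0.102), WFI replicate 2 (0.123) or EV replicate 2 (0.237), with DESeq2 (0.0725) and with no count filter (0.138). ABCF1 lies in the MHC region of chromosome 6, where a count of at least 10 in all 4 samples was reached by 2 of the 153 protein-coding genes from 29 to 33 Mb, and elsewhere on that chromosome by 511 of 886. Its 2 and 0 counts in EV and 5 and 24 in WFI are therefore no usable measurement.

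Of 20 genes of ribosome recycling and the stress response that ABCE1 and the F members work beside, 19 were tested, of which 11 were higher in EV, 6 lower and 2 not called, and the median log2 fold change was 0.29. For all genes tested the shares were 34.5% higher and 31.5% lower. EIF1, an initiation factor, rose by 1.47 (SE 0.03, edgeR adjusted p = 4.79e-12). GCN1, which senses stalled ribosomes, fell by 1.01 on the log2 scale (SE 0.04, edgeR adjusted p = 2.26e-09), and LTN1, a ligase of ribosome quality control, fell by 1.24 (SE 0.08, edgeR adjusted p = 1.74e-07).

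Of 22 receptors and transcription factors known to regulate ABC genes in one tissue or another, 19 were tested, of which 8 were higher in EV, 6 lower and 5 not called, and the median log2 fold change was 0.19. The whole set of genes tested had 34.5% higher and 31.5% lower. YBX1, a protein that binds the Y-box, an inverted CCAAT sequence, had 44554 and 46666 counts in EV and 20529 and 20283 in WFI (log2 fold change 1.31, SE 0.03, edgeR adjusted p = 8.36e-12). AHR, the aryl hydrocarbon receptor, had 1714 and 1932 counts in EV and 418 and 420 in WFI (log2 fold change 2.27, SE 0.07, edgeR adjusted p = 4.83e-10). YBX1 and AHR were higher in both EV samples than in both WFI samples, as ABCB1 was, and no link between them was tested. NR1I2, the xenobiotic receptor PXR, had 5 and 0 counts in EV and 5 and 2 in WFI.

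Levels of different genes were compared per kilobase of transcript. By mean CPM per kilobase, ABCB1 ranked 2 of 46 in EV (15.5 and 16.9) and 19 in WFI (3.37 and 3.69). In EV its samples spanned those of ABCF3 (16.3 and 15.9), so places 2 and 3 could not be told apart. ABCA1 ranked 24 in EV (0.492 and 0.66) and 11 in WFI (8.39 and 8.10). ABCE1 ranked 1 in both groups, with 22.9 and 25.7 in EV and 27.4 and 28.3 in WFI. ABCC9 ranked 12 in EV and 4 in WFI.

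**Figure D3:**
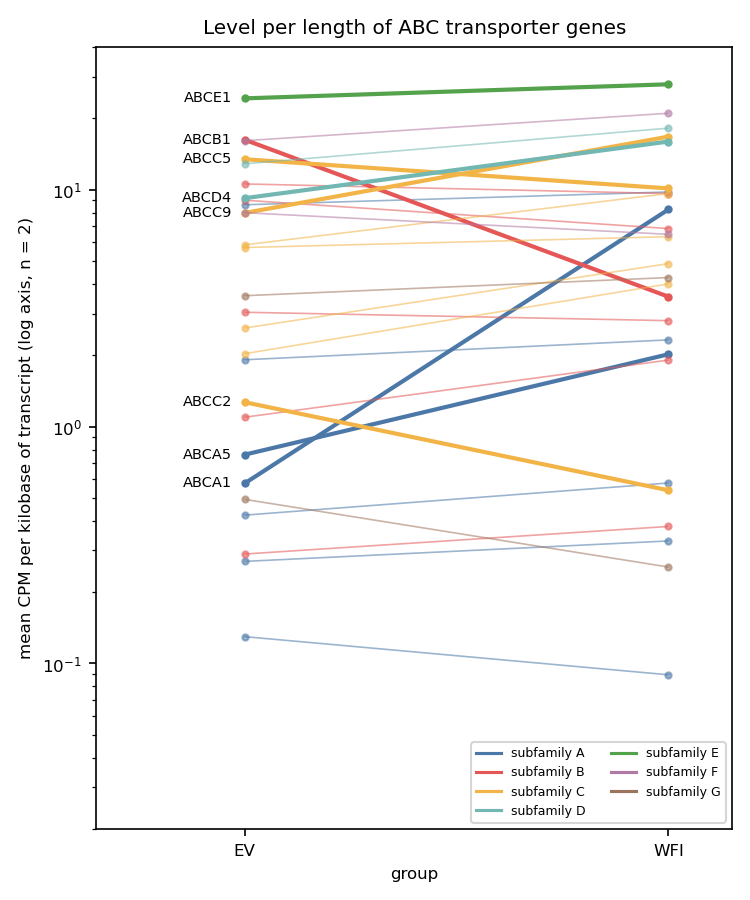
Mean CPM per kilobase of transcript on a log axis in EV (left) and WFI (right) for 27 tested ABC transporter genes, without the 4 that had at most 3 counts in each WFI sample, coloured by subfamily. The line of ABCB1 is at 16.2 in EV and 3.53 in WFI, and that of ABCA1 at 0.576 in EV and 8.25 in WFI.

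Summed over all 46 members, the level was 180.9 and 189 CPM per kilobase in EV and 212 and 213 in WFI. Subfamily B made up 24.4% and 24.5% of that sum in EV and 14.3% and 15.2% in WFI. Without ABCB1 the other B members summed to 28.6 and 29.2 CPM per kilobase in EV and 27.0 and 28.6 in WFI, so ABCB1 made up most of the difference. ABCB1 itself was 8.59% and 8.97% of the family sum in EV and 1.59% and 1.73% in WFI. Subfamily A made up 7.44% and 6.94% in EV and 11.1% and 11.0% in WFI, and without ABCA1 its other members summed to 13.0 and 12.4 CPM per kilobase in EV and 15.1 and 15.3 in WFI. Subfamily C made up 21.2% and 21.4% in EV and 25.0% and 24.2% in WFI. These shares are descriptions with no test, and the transcript length used may differ from that of the transcript expressed.

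**Figure D4:**
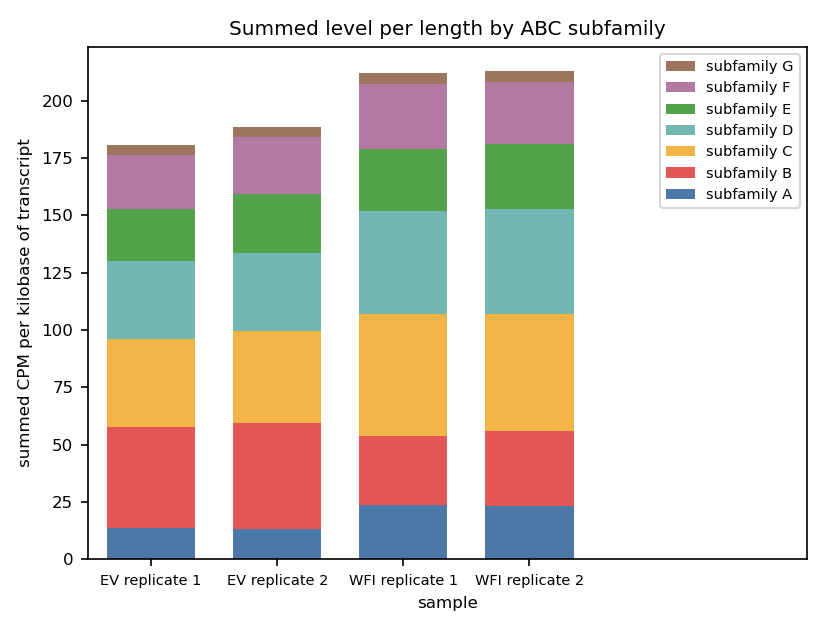
Summed CPM per kilobase of transcript in each sample, EV samples left of WFI samples, stacked by ABC subfamily over all 46 genes. Subfamily B reaches 44.2 and 46.1 in EV and 30.4 and 32.3 in WFI, and subfamily A 13.4 and 13.1 in EV and 23.5 and 23.4 in WFI.

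ABC transcripts are long, with a median of 5088 bases over the 33 tested members and 2769 bases over all genes tested that have a length. Across 17073 genes tested, the log2 fold change followed transcript length at Spearman rho = -0.29, and across the 33 members at -0.07, as descriptions over genes that share their libraries. Correcting the fit for length and GC content moved the median log2 fold change of the members to 0.11. ABCA1, ABCA5 and ABCC9 then stood at -2.84, -0.50 and -0.23, and ABCB1 at 2.56. The 6 values that turned sign, those of ABCA2, ABCA7, ABCA10, ABCC4, ABCE1 and ABCG2, were between -0.29 and -0.15 before the correction and between 0.09 and 0.38 after it.

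**Figure D5:**
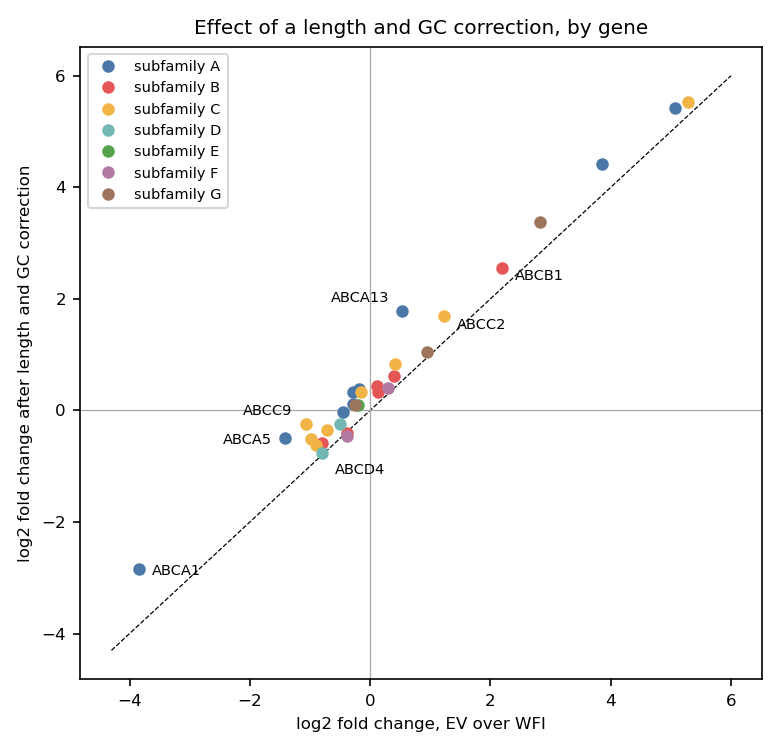
Log2 fold change of EV over WFI (horizontal) against the value after a correction for transcript length and GC content (vertical) for 31 tested ABC transporter genes, coloured by subfamily, with a dashed line of equal values. Points lie above the line for most genes, with ABCA1 at -3.83 and -2.84 and ABCB1 at 2.20 and 2.56.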

How the data were processed

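The authors deposited whole-number counts per gene for each of the 4 samples, with no normalization. Per the labels' protocols, total RNA and a directional library kit were used, and per the submitters' processing notes reads were placed on hg38. Which aligner, counter, strand option and annotation were used is not given in the sources used here. Symbols were found for 61757 of 61860 gene identifiers, and gene types, positions and transcript lengths (the APPRIS principal transcript, otherwise the longest) came from GENCODE 29 for hg38, where 58308 identifiers matched.

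The whole table was fitted in edgeR 4.0.16 (R 4.3.3), with TMM scaling, filterByExpr (minimum count 10, minimum total 15), which left 17465 genes, a non-robust quasi-likelihood test and treatment as the single model term. A gene was called at a Benjamini-Hochberg adjusted p below 0.05. The standard error is the size of the log2 fold change divided by the square root of F. Alternatives were RLE and upper quartile scaling, DESeq2 1.42.0, other count filters, a replicate block, leaving out each sample on the same genes (the lone sample left is assumed to vary like the other group), a fold threshold, and offsets from a smooth fit (mgcv 1.9.3) of fold change on length and GC content. The fit was tested on simulated data. The spread between replicates exceeded sampling noise, with a mean chi-square per gene of 4.72 in EV and 2.25 in WFI. Totals of 19368791 to 20727175 limit what can be seen of genes with a few counts.

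Members are named, with counts where they lay below the filter, as are the 3 genes of each companion list with the smallest adjusted p; a few of these members and list genes are not reported here, though counts, sums and medians include them. Other genes named were chosen after their values were seen. The members and lists were chosen with earlier results of these data known. Protein sequences were not used here.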

Additional observations from a re-analysis of the deposited data

How the results depend on the processing

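Of the 33 tested members, 11 kept direction and call in every alternative run that fitted them. Among called members, 16 did so apart from the fold threshold. In some alternative, 7 tested members changed direction. The filter of 50 counts fitted only 25 members. It removed ABCA8, ABCA9, ABCC8 and ABCG8 among others, so for removed members that run could not count as a change. The 9 higher members became 5 with a filter of 50 counts and 14 with the length and GC correction, and leaving out 1 sample gave 7 to 9. The 13 lower became 3 with a log2 fold change of at least 1 required, and 9 to 15 with 1 sample left out. The length and GC correction turned ABCA2 (0.383), ABCA7 (0.108), ABCA10 (0.337), ABCC4 (0.337), ABCE1 (0.105) and ABCG2 (0.089). ABCA13 ranged from -1.084 to 1.276 with 1 sample left out and was 1.786 with that correction. NR1H2 lay near 0 and turned with RLE scaling (0.002), upper quartile scaling (0.039), a filter of 50 counts (0.03) and DESeq2 (0.002), and ranged from -0.204 to 0.146 with 1 sample left out, and was called lower with the length and GC correction (-0.305). Apart from the members that the filter of 50 counts removed, the cause of these changes was not tested.

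With the fold threshold, higher and lower genes numbered 4 and 1 for sterol synthesis, 2 and 2 for cholesterol handling and 2 and 0 for peroxisomal genes. They numbered 4 and 1 for heme genes, 1 and 2 for ribosome recycling and 1 and 2 for drug carriers. For the regulators they were 6 and 2, and for LXR targets 4 and 1. Of all 17465 genes tested, 3063 were higher and 2322 lower with that threshold. The length and GC correction gave 7 lower sterol genes, and DESeq2 4 lower peroxisomal genes. With 1 sample left out, lower peroxisomal genes ranged from 4 to 8 and lower heme genes from 2 to 5.

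Same-numbered samples deviated together at r = 0.0159 over 17465 genes, so the numbers were not taken to pair samples. With a replicate block 9 members were higher and 13 lower.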
